A study of Drosophila melanogaster with 4 samples.

Results

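The miR-14 hairpin gives 2 mature strands, miR-14-3p and miR-14-5p, and both were followed here in the small RNAs that came down with Ago1 and Ago2, 2 Argonaute proteins of the fly Drosophila melanogaster. A read was counted for a strand when its sequence matched the mature strand exactly over at least 14 nt, with its 5′ start shifted by at most 8 nt and its 3′ end by at most 10 nt. Of 7181 distinct sequences in the series, 77 met this rule, 36 for miR-14-3p and 41 for miR-14-5p, and none was listed more than once in a library. These are 2 of the 632 groups of overlapping sequences (arms) in the data. The series has 4 libraries from whole male flies of the genotype FLAG-HA-Ago2, reared at 25˚C and aged to 3 d or 30 d. At each age, Ago1 was precipitated with an anti-Ago1 antibody and the FLAG-HA-tagged Ago2 with anti-FLAG M2 beads, so the controls for age and for protein carry the same tagged Ago2. Each of the 4 groups is 1 library, so no comparison could be set against a replicate spread, no test between groups was made, and every interval below is a 95% interval for counting error alone.

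In flies, a miRNA hairpin is cut by Dicer-1 into a duplex of a guide strand and its partner, which is called the star or passenger strand. Ago1 is the usual effector of miRNAs, while Ago2 is best known for siRNAs and also takes up many miRNA partner strands, with a preference for duplexes that are well paired in the centre. RNAs in Ago2 carry a 2′-O-methyl group at the 3′ end, added by Hen1, and 3′ ends of several miRNAs in Ago1 are shortened by the exonuclease Nibbler. miR-14-3p is the guide strand that fly genetics has studied. Flies without mir-14 store more fat, mir-14 restrains cell death, and it acts in the insulin-producing neurosecretory cells and in the response to ecdysone. Bases 2 to 8 of a guide, the seed, choose its targets, so a start shifted by 1 base gives a different seed.

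The sequences of miR-14 itself are not printed here. Those below are first of hairpins whose prevailing strand differed between Ago1 and Ago2 much as that of miR-14 did. These are bantam and miR-275 at both ages, and miR-263b at 3 d only. The others are miR-9a-5p, miR-957-3p and miR-996-5p. Each is among the 3 arms most like a miR-14 strand in how its level varied over the 4 libraries, but none is the closest. The mean level of each arm was removed first, so likeness in level itself is not meant. Each sequence is the most abundant form in the deposited lists, 5′ to 3′, in DNA letters, with the seed in capitals.
bantam-5p: cCGGTTTTcgatttggtttgact
bantam-3p: tGAGATCAttttgaaagctgatt
miR-263b-5p: cTTGGCACtgggagaattcacag
miR-263b-3p: aCTGAATTctcgtgggtctgca
miR-275-5p: cGCGCTAAtcagtgaccggggc
miR-275-3p: tCAGGTACctgaagtagcgcgc
miR-9a-5p: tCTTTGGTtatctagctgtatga
miR-957-3p: tGAAACCGtccaaaactgaggc
miR-996-5p: gCGAACATggatctagtgcacg
Of the strands that prevailed with Ago1, bantam-3p and miR-275-3p begin with U (t above), as miR-14-3p does, while miR-263b-5p begins with C. Of those that prevailed with Ago2, bantam-5p and miR-275-5p begin with C and miR-263b-3p with A, whereas miR-14-5p begins with G, as miR-996-5p does. Among these 4 hairpins, picked for their sorting, U thus began only strands that prevailed with Ago1, though not all of them.

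The Ago1 libraries held 26636441 listed reads at 3 d and 26451651 at 30 d, and the Ago2 libraries 13491805 and 34554191. All levels are reads per 1000000 listed reads (RPM), so each is relative to the other listed RNAs of its library, and fewer cells that make a miRNA cannot be told apart from less of it per cell. A single arm, miR-263a-5p, held 484052 RPM with Ago2 at 3 d and 549506 RPM at 30 d, against 50498 and 37043 RPM with Ago1, which bears on every RPM ratio between the proteins. The male, whole-fly source was checked with arms known from a tissue. Muscle miR-1-3p had 795 and 767 RPM and muscle miR-133-3p 2407 and 1455 RPM with Ago1 at 3 d and 30 d. In the Ago2 libraries miR-1-3p went from 40.8 to 113 RPM between the ages (log2 ratio 1.44) and miR-133-3p from 16.6 to 19.6 RPM. The arms listed for testis, miR-959-3p, miR-960-5p, miR-962-5p and miR-982-5p, were present in all 4 libraries, and nervous system miR-124-3p reached no more than 9.68 RPM. The partner strand of the latter, miR-124-5p, had more reads with Ago2 than with Ago1 at both ages. It had 126 and 71 reads with Ago1 at 3 d and 30 d, and 1271 and 8480 reads with Ago2. With Ago2, miR-959-3p was lower at 30 d (209 RPM) than at 3 d (603 RPM), as were miR-960-5p (163 to 47.0 RPM) and miR-962-5p (312 to 89.0 RPM). With Ago1 the log2 ratios of 30 d over 3 d of the 4 testis arms were -0.90, -1.02, -0.72 and -0.86 in the order named. The part of these shifts in the age ratios below was not tested.

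The strand that prevailed differed between the proteins, with miR-14-3p in the Ago1 libraries and miR-14-5p in the Ago2 libraries. Each library is scaled to its own reads. The values therefore do not give how the molecules of a strand were divided between the proteins. In the Ago1 libraries miR-14-3p had 27459.7 RPM (731429 reads) at 3 d and 25682 RPM (679329 reads) at 30 d, and in the Ago2 libraries 293 RPM (3956 reads) and 826 RPM (28552 reads). miR-14-5p had 331 RPM (8822 reads) and 539 RPM (14259 reads) in the Ago1 libraries and 6045 RPM (81560 reads) and 8352 RPM (288590 reads) in the Ago2 libraries. Both Ago1 libraries were thus high for the guide and low for its partner, and both Ago2 libraries the reverse. By abundance, miR-14-3p was the 8th and 9th arm with Ago1 but the 38th and 29th with Ago2. miR-14-5p was the 63rd and 58th with Ago1 and the 12th at both ages with Ago2.

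**Figure D1:**
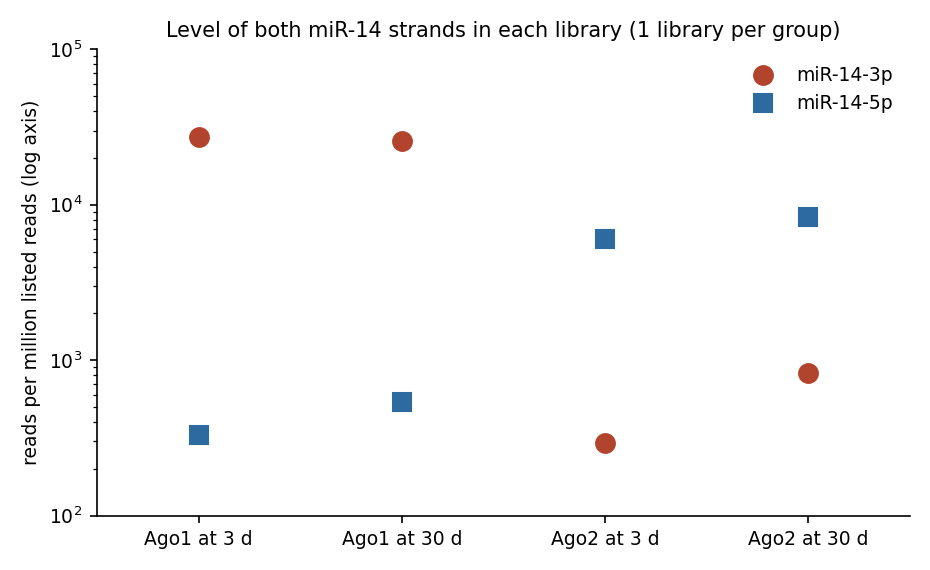
Level of miR-14-3p (circles) and miR-14-5p (squares) in each of the 4 libraries, in RPM on a log axis; each point is 1 library. The guide lies above its partner in both Ago1 libraries, at 27459.7 and 25682 RPM, and below it in both Ago2 libraries, at 293 and 826 RPM.

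Within the hairpin, a share needs no scaling between libraries. Counting both strands as the whole, miR-14-5p made up 1.19% (1.17 to 1.22) in the Ago1 library of 3 d flies and 2.06% (2.02 to 2.09) in that of 30 d flies. With Ago2 it made up 95.4% (95.2 to 95.5) at 3 d and 91.0% (90.9 to 91.1) at 30 d. Put as a ratio, Ago1 had 82.9 guide reads for each partner read at 3 d and 47.6 at 30 d, and there were 20.6 partner reads for each guide read with Ago2 at 3 d and 10.1 at 30 d. The prevailing strand was therefore less dominant at 30 d with both proteins. The share of miR-14-5p changed by 0.864 percentage points with Ago1 and by -4.38 points with Ago2, both beyond counting error.

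On the log2 scale, with 1 RPM added to both levels, the Ago2 over Ago1 ratio of miR-14-3p was -6.54 (-6.59 to -6.50) at 3 d and -4.96 (-4.98 to -4.94) at 30 d, or 93.3-fold and 31.0-fold lower with Ago2. That of miR-14-5p was 4.19 (4.16 to 4.22) and 3.95 (3.93 to 3.98), or 18.2-fold and 15.5-fold higher. When the totals omitted the 10 most abundant arms, these folds were 46.2 and 18.6 for miR-14-3p and 36.8 and 25.8 for miR-14-5p. Among the 90 arms whose mean over both libraries reached 100 RPM at 3 d, the level with Ago2 was lower by 2-fold or more for 60.0% and higher by 2-fold or more for 26.7%. Among the 87 such arms at 30 d the shares were 60.9% and 31.0%. At 3 d, 6 arms lay below miR-14-3p and 9 above miR-14-5p, and at 30 d these numbers were 16 and 11. The median of all arms was -3.10 at 3 d and -2.53 at 30 d. Relative to it miR-14-3p stood at -3.45 and -2.43, and miR-14-5p at 7.28 and 6.48.

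Age went with a different change for each strand and protein. For miR-14-3p the log2 ratio of 30 d over 3 d came to -0.10 (-0.10 to -0.09) with Ago1, a value whose sign turned under other scalings (0.28 with TMM factors, 0.0055 with the median of ratios), and 1.49 (1.45 to 1.54) with Ago2, a 2.81-fold higher level. For miR-14-5p the values were 0.70 (0.66 to 0.74) for Ago1 and 0.47 (0.46 to 0.48) for Ago2. With Ago1, 1.22% of 82 arms were higher at 30 d by 2-fold or more and 1.22% lower by as much, and neither miR-14 strand was among them; the 1 higher and 1 lower arm became 7 and 1 under TMM, where the value of miR-14-5p was 1.07. With Ago2, the shares of 68 arms were 16.2% higher and 11.8% lower, which is 11 and 8 arms, or 7 and 10 under TMM. miR-14-3p was among the 11, with 4 arms above it, and its value stayed above 1 under every scaling tried. Relative to the median of all arms, which was -0.024 with Ago1 and 0.35 with Ago2, miR-14-3p stood at -0.073 and 1.14 and miR-14-5p at 0.72 and 0.12.

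The Ago2 over Ago1 ratio of miR-14-3p was 1.59 (1.54 to 1.64) higher on the log2 scale at 30 d than at 3 d, against a median of 0.39 over 91 arms, with 6 arms above it. That of miR-14-5p differed by -0.23 (-0.27 to -0.19), and 16 arms lay below it. With TMM the differences were 1.03 and -0.79, and with 10 arms left out 1.31 and -0.51. With 1 library in each group, neither difference could be compared with the spread between replicates.

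**Figure D2:**
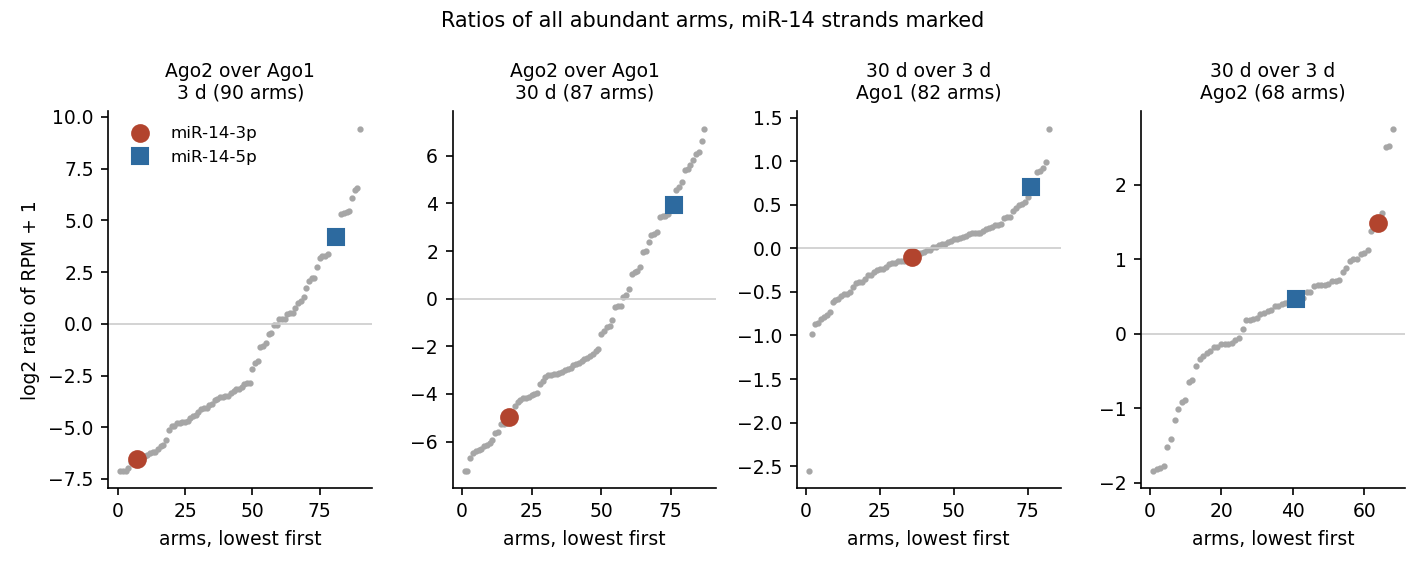
Log2 ratio of RPM + 1 for every arm whose mean over the 2 libraries reached 100 RPM, ordered from lowest to highest, for Ago2 over Ago1 at 3 d and 30 d and for 30 d over 3 d with Ago1 and Ago2; the vertical scales differ between panels. miR-14-3p (circle) and miR-14-5p (square) lie near opposite ends for the proteins, at -6.54 and 4.19 at 3 d, and miR-14-3p is near the top for age with Ago2, at 1.49.

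The start of miR-14-3p differed between the proteins. With Ago1, 99.6% (99.6 to 99.7) of its reads at 3 d and 99.8% (99.7 to 99.8) at 30 d began at the annotated base. With Ago2 these shares were 89.0% (88.0 to 89.9) and 89.8% (89.5 to 90.2). Nearly all of the remainder with Ago2 began 1 nt later, at 10.3% (9.36 to 11.2) at 3 d and 9.98% (9.64 to 10.3) at 30 d, against 0.146% (0.137 to 0.155) and 0.120% (0.112 to 0.128) with Ago1. The later start moves the first base from U to C and gives a seed that no other arm of the 632 holds at its own start. This start shift was picked for description after its values had been seen. Set beside other arms, 27.6% of 87 arms at 3 d and 28.2% of 85 at 30 d had a share of reads starting 1 nt later that was at least 2-fold higher with Ago2. The log2 ratio of these shares was 6.14 for miR-14-3p at 3 d, with 1 arm above it, and 6.38 at 30 d, with none of the 85 above it, against medians of 0.0023 and 0.26.

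In reads rather than shares, the later start was not depleted with Ago2 the way the annotated start was. The Ago1 libraries held 1067 such reads (40.1 RPM) at 3 d and 813 (30.7 RPM) at 30 d, and the Ago2 libraries 406 (30.1 RPM) and 2849 (82.5 RPM). Without a pseudocount, Ago2 stood against Ago1 at a log2 ratio of -0.41 (-0.58 to -0.25) at 3 d, where the sign turned under other scalings (0.11 with TMM, 0.47 with the median of ratios, 0.60 with 10 arms left out), and 1.42 (1.31 to 1.54) at 30 d. Over the annotated start of the same strand the ratios were -6.71 (-6.76 to -6.66) and -5.11 (-5.13 to -5.09). Starts 2 nt late followed the annotated start more closely, with 1105, 635, 14 and 40 reads in the same library order and ratios of -5.32 (-6.20 to -4.57) and -4.37 (-4.87 to -3.91). The start of miR-14-5p was nearly uniform, with 98.2%, 98.7%, 99.1% and 99.1% of its reads at the annotated base in Ago1 at 3 d and 30 d and Ago2 at 3 d and 30 d. Its most frequent other start was 1 nt early, at 1.44%, 0.863%, 0.701% and 0.603%.

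Each strand had a commonest form that was the same in all 4 libraries. For miR-14-3p this was 20 nt long and ended 2 nt before the annotated 22-nt strand, with 80.7% of the strand's reads at 3 d and 88.4% at 30 d in the Ago1 libraries, and 73.7% and 77.4% in the Ago2 libraries. The full 22-nt form held 17.5%, 10.2%, 13.5% and 9.99%. The 20-nt form thus had a larger share at 30 d with both proteins, and the 22-nt form a smaller one. With Ago1 the log2 ratio of 30 d over 3 d was 0.036 for the 20-nt form, while the 22-nt form was lower at 30 d (-0.87, with an interval of -0.89 to -0.86). With Ago2 both were higher at 30 d, by 1.57 (1.51 to 1.62) and 1.06 (0.93 to 1.20) without a pseudocount.

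The later start with Ago2 came in 2 main forms. A 22-nt form that began 1 nt late and ended 1 nt past the annotated end had 32 reads at 3 d and 15 at 30 d in the Ago1 libraries, and 330 and 1316 in the Ago2 libraries. It was the one miR-14-3p form of those holding at least 1% of the strand in any library that was higher with Ago2 than with Ago1 at both ages, with log2 ratios without a pseudocount of 4.35 (3.82 to 4.92) and 6.07 (5.34 to 6.91). With 1 RPM added, the values were 3.53 and 4.64, outside these intervals, because the Ago1 levels were near 1 RPM. A 19-nt form that began 1 nt late and ended 2 nt early had 743, 639, 43 and 1328 reads in the same order. Its ratio of Ago2 over Ago1 was -3.13 (-3.61 to -2.69) at 3 d and 0.67 (0.53 to 0.81) at 30 d, so the order of the proteins turned with age. Its level with Ago2 at 30 d was higher by 3.59 (3.15 to 4.07) on the log2 scale than at 3 d, against 0.64 (0.46 to 0.82) for the 22-nt form with the late start. Reads with the late start had a mean length of 21.6 nt with Ago2 at 3 d and 20.5 nt at 30 d, against 19.6 and 19.4 nt with Ago1.

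**Figure D3:**
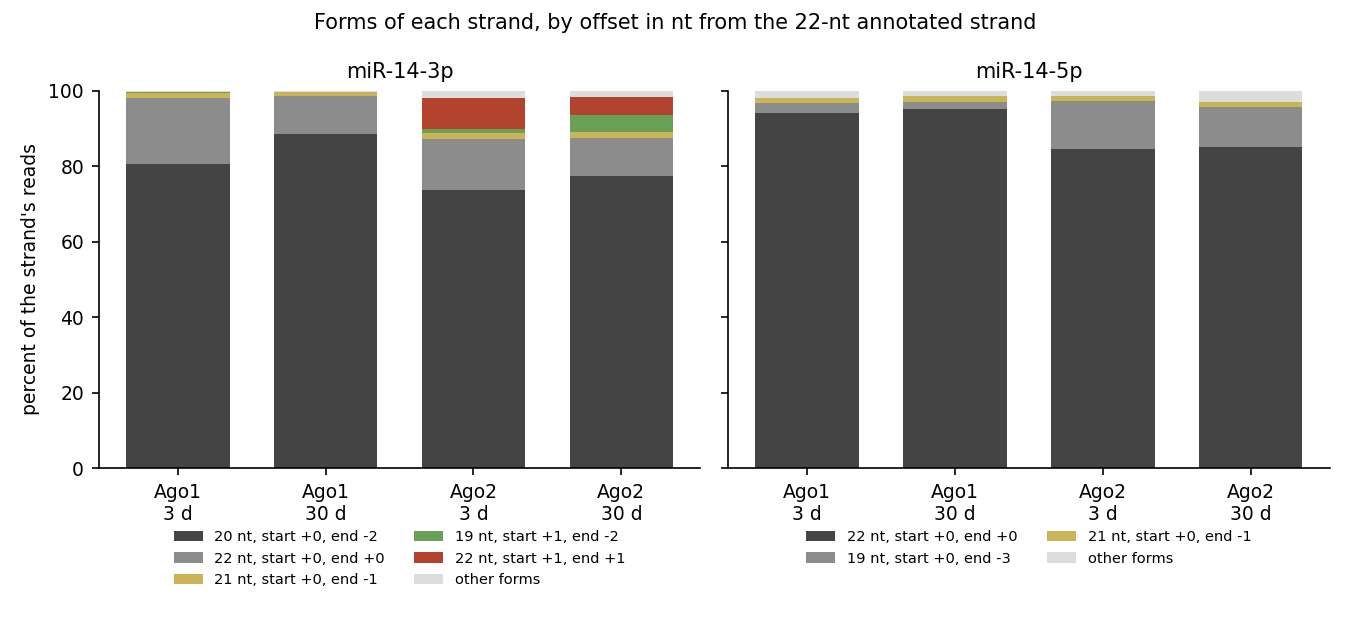
Share of each strand's reads held by each form with at least 1% in any library, as percent, in the 4 libraries; a form is named by its length and by how many nt its start and end lie after (+) or before (-) those of the annotated 22-nt strand. The 2 late-start forms of miR-14-3p can be seen with Ago2, at 8.34% and 1.09% at 3 d and 4.61% and 4.65% at 30 d, and the 19-nt form of miR-14-5p is larger with Ago2.

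For miR-14-5p the annotated 22-nt form was the commonest, with 94.0% of reads in Ago1 at 3 d, 95.2% in Ago1 at 30 d, 84.5% in Ago2 at 3 d and 85.0% in Ago2 at 30 d. A 19-nt form, which ended 3 nt early, had 231 reads (2.62%), 236 reads (1.66%), 10403 reads (12.8%) and 30657 reads (10.6%) in the same order. Short reads thus made up a larger share of this strand with Ago2 than with Ago1. Without a pseudocount, the 19-nt form had log2 ratios of Ago2 over Ago1 of 6.47 (6.29 to 6.67) at 3 d and 6.64 (6.45 to 6.83) at 30 d. The 22-nt form had 4.04 (4.003 to 4.07) and 3.79 (3.77 to 3.82). Reads that ended 5 nt early were rarer, with 2, 5, 44 and 1757 reads, or 0.0227%, 0.0351%, 0.0539% and 0.609% of the strand. That end, picked after its values had been seen, was highest with Ago2 at 30 d.

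**Figure D4:**
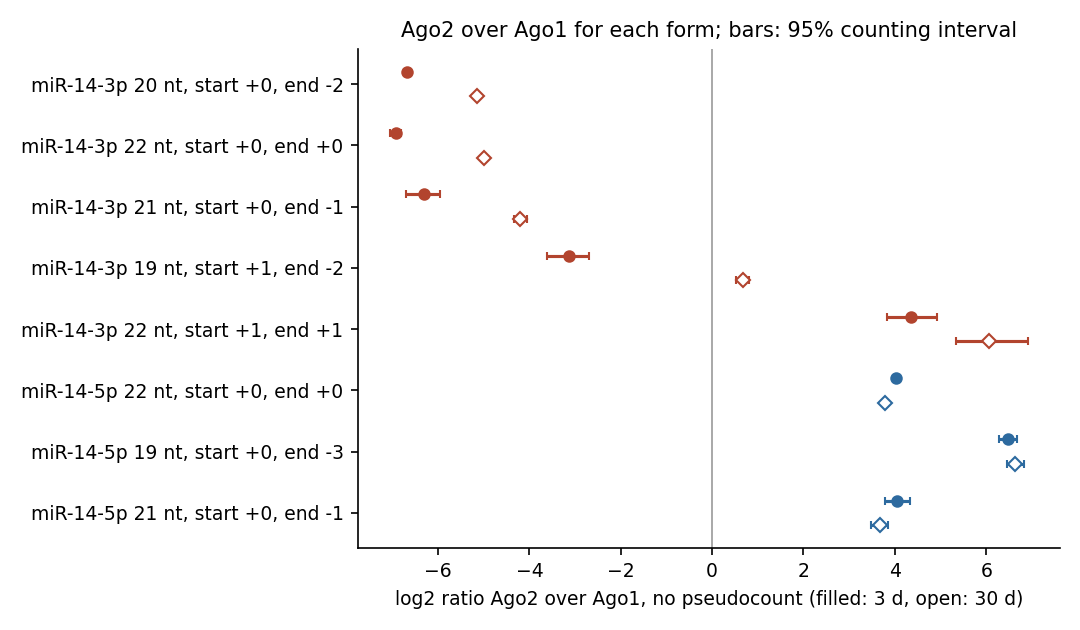
Log2 ratio of Ago2 over Ago1 for each form of miR-14-3p and miR-14-5p with at least 1% of its strand in any library, without a pseudocount, at 3 d (filled) and 30 d (open); bars are 95% counting intervals. The 22-nt late-start form of miR-14-3p lies at 4.35 and 6.07, on the side of miR-14-5p, while the 3 forms with the annotated start lie below -4.

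Mean lengths followed from these forms. miR-14-3p averaged 20.4 nt with Ago1 at 3 d, 20.2 nt with Ago1 at 30 d, 20.5 nt with Ago2 at 3 d and 20.3 nt with Ago2 at 30 d. miR-14-5p averaged 21.9, 21.9, 21.6 and 21.6 nt. The guide was the shorter strand in every library. The share of reads ending before the annotated end was 82.2%, 89.6%, 77.1% and 84.3% for miR-14-3p, and 5.10%, 4.14%, 15.0% and 14.4% for miR-14-5p. Between the proteins, the mean length of miR-14-5p differed by -0.313 nt at 3 d and -0.332 nt at 30 d. Where both libraries held 100 reads or more of an arm, 23.0% of 113 arms and 27.0% of 126 were at least 0.25 nt shorter with Ago2, so this difference was a common one. Between the ages, miR-14-3p differed by -0.150 nt with Ago1 and -0.192 nt with Ago2. Neither reached the 0.25 nt by which 19.4% of 165 arms with Ago1 and 21.6% of 125 with Ago2 were shorter at 30 d.

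Reads of both strands followed 1 precursor sequence. Positions outside the mature strand, 7 for miR-14-3p and 9 for miR-14-5p, each showed a single base in all reads that covered them. How the lists were filtered is not given. Had only reads that match the genome been kept, a hairpin with 1 copy would show this in any case. No listed sequence matched either strand with 1 mismatch over at least 17 nt, and no other arm shared either seed, so no near-identical copy was found to share these reads. In the gene annotation of BDGP6, a later build than the dm3 that the submitters' processing notes name, mir-14 is on chromosome arm 2R as a 63-nt precursor with 2 annotated 22-nt strands. It lies within an exon of the transcript lncRNA:CR43651-RB, and no other annotated hairpin lies within 10000 nt. Its coordinates are not given, since the builds differ.

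The 22-nt strands were folded against each other with RNAduplex. The predicted duplex had 16 base pairs and an energy of -20.9 kcal/mol, the 11th lowest of 24 hairpins compared. The first 2 bases of miR-14-3p were unpaired, whereas the first base of miR-14-5p was paired. In the centre, base 10 of miR-14-3p was unpaired, as was base 11 of miR-14-5p, while bases 9 and 10 of miR-14-5p were paired. Of all 213 arms with at least 100 reads in a library that were paired with miR-14-3p in the same way, miR-14-5p gave the 2nd lowest energy. These are predictions from sequence and describe the duplex alone.

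Sorting was compared among 24 hairpins with both strands named and at least 100 reads in each library. By the difference between Ago2 and Ago1 in percentage points, and by that measure alone, miR-14 ranked 1 at 3 d. For each hairpin, the strand with fewer Ago1 reads was taken as the minor strand. It was set once for both ages, and the choice favours a higher share with Ago2. For miR-278 the minor strand share was 53.7% with Ago1 at 30 d. At each age 19 of the 24 hairpins had a larger such share with Ago2 than with Ago1, and it was above 50% with Ago2 in 11 at 3 d and 10 at 30 d. The Ago2 minus Ago1 difference was 94.2 percentage points for miR-14 at 3 d, ahead of bantam at 92.9, miR-263b at 92.8 and miR-275 at 92.0. At 30 d miR-14 had 88.9 points and came after bantam at 91.2 and miR-275 at 91.0, and ahead of miR-124 at 78.0, miR-996 at 77.4 and miR-993 at 65.5. By then miR-263b had 59.1 points and ranked 8. Differences of 1 to 2 points between miR-14, bantam and miR-275 had no replicate spread to be set against. At 30 d the minor strand share was lower with Ago2 in 14 of the 24 hairpins and higher with Ago1 in 11, and both held for 4, miR-14 among them.

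**Figure D5:**
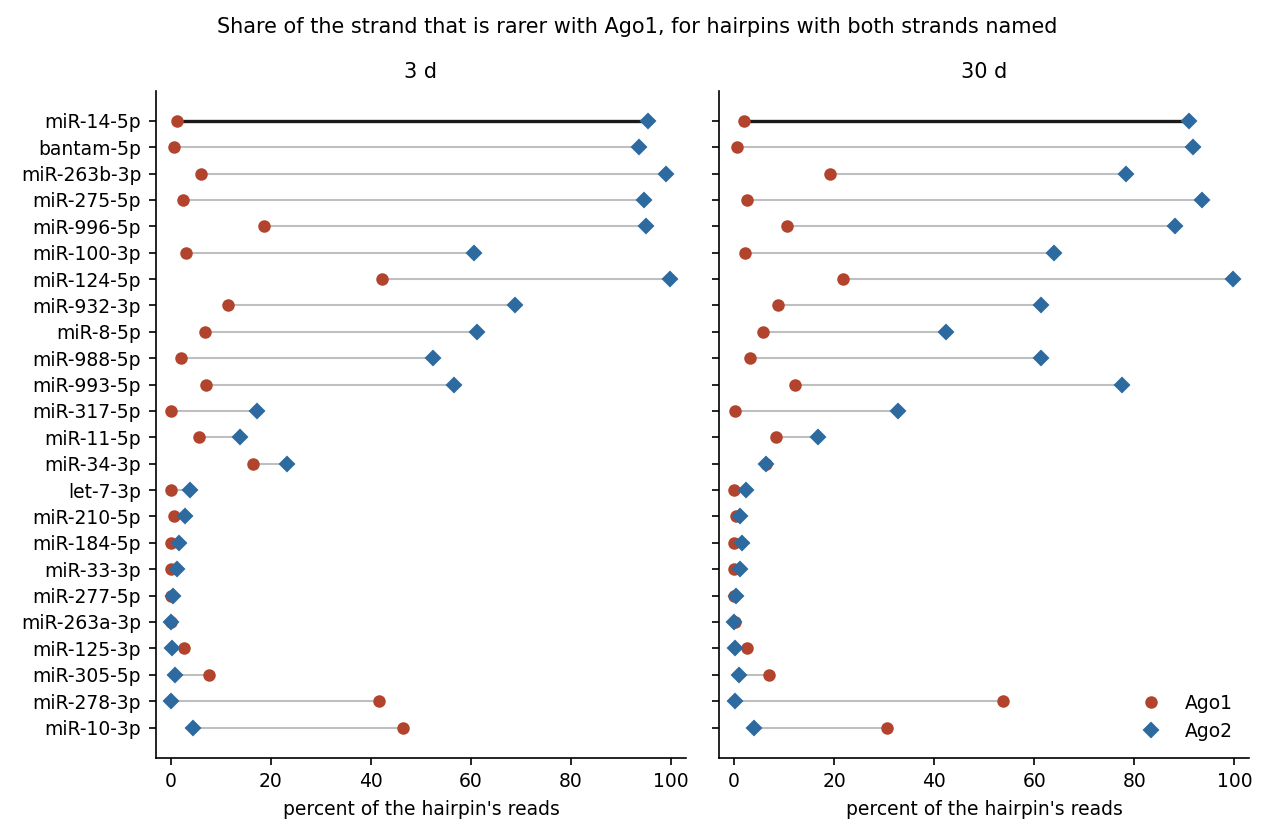
Share of the strand that is rarer with Ago1, as percent of its hairpin's reads, with Ago1 (circles) and Ago2 (diamonds) at 3 d and 30 d for 24 hairpins. That strand was set once for both ages, and for miR-278 it was the commoner one with Ago1 at 30 d. Hairpins are ordered by the difference at 3 d. miR-14 is at the top, with 1.19% and 95.4% at 3 d and 2.06% and 91.0% at 30 d.

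The arms most like each miR-14 strand were found by the root mean square difference of mean-centred log2(RPM + 1) over the 4 libraries, among 90 other arms that averaged 100 RPM or more. For miR-14-3p these were miR-2b-3p at 0.32, which had 6643, 6127, 77.8 and 124 RPM in Ago1 at 3 d and 30 d and Ago2 at 3 d and 30 d, then miR-9a-5p at 0.37 and miR-957-3p at 0.37. For miR-14-5p the closest were 2 arms without a name here, at 0.33 and 0.37, and miR-996-5p at 0.45, with 69.5, 72.5, 637 and 785 RPM. With 4 libraries, this measure is set mainly by the difference between the proteins.

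Guide strands known for fat storage, nutrient use or insulin signalling were taken as a first group. miR-14-3p is itself a member, so it enters the counts and medians of the list. Of 7 such strands, 6 reached the mean of 100 RPM for the comparison of proteins. At each age 5 of the 6 were at least 2-fold lower with Ago2 and none was higher, beside 60.0% and 60.9% lower among all arms, and the list's median was -3.36 at 3 d and -3.22 at 30 d. The exception was miR-33-5p, from the hairpin whose vertebrate relatives lie in genes of sterol control, at -0.064 and -0.35. The list was drawn from strands known as guides, while all arms also include partner strands. A lower standing with Ago2 than all arms therefore cannot be read as a trait of this list. By reads, miR-305-5p was the rarer strand of its hairpin in every library, at 7.58% with Ago1 and 0.757% with Ago2 at 3 d. So was miR-278-3p, which missed the minimum here, except with Ago1 at 30 d (53.7%). With age and Ago2, 3 of 6 were at least 2-fold higher, beside 16.2% of all arms, and the list's median was 0.87 beside 0.35. These were miR-14-3p, let-7-5p at 1.12, which marks the adult stage, and miR-33-5p at 1.09. The count rests on the scaling, since with TMM, where 7 of 68 arms were higher, let-7-5p was at 0.93 and miR-33-5p at 0.90, and miR-14-3p was then the 1 member of 6 past 2-fold, as it was with the 10 most abundant arms left out. The other 3 were miR-305-5p at 0.65, miR-8-3p, which acts on insulin signalling in the fat body, at 0.47, and miR-277-3p, which acts on branched-chain amino acid breakdown, at -0.14. With Ago1, all 7 passed the minimum, and 1 of them, miR-33-5p at 1.37, was at least 2-fold higher, beside 1.22% of all arms. The 7th strand, miR-278-3p, which takes part in energy balance, had 0.87 there and 1.24 with TMM, which made the count 2 of 7, beside 7 of 82 arms.

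Guide strands known for repressing proapoptotic genes were the second group, and miR-14-3p again enters its counts and medians. Of 11, 7 passed the minimum for the proteins at 3 d and 8 at 30 d, and 6 were at least 2-fold lower with Ago2 at each age, beside 60.0% and 60.9% of all arms. With the median of ratios, or with the 10 most abundant arms left out, miR-11-3p fell short of 2-fold. The count was then 5 at each age, beside 50 of 90 arms at 3 d and 49 of 87 at 30 d. The list's median was -6.19 at 3 d and -4.64 at 30 d, beside -3.10 and -2.53 for all arms. This list too was drawn from strands known as guides, so its lower standing cannot be read as a trait of cell death miRNAs. bantam-3p, which represses hid, was at -7.10 and -6.50, miR-2b-3p, of the miR-2 family that represses reaper and its relatives, at -6.40 and -5.61, and miR-11-3p at -1.87 and -1.47. miR-263a-5p, which protects sensory bristle cells, was higher with Ago2 at 3.26 and 3.89, and miR-263b-5p was at -0.74 with too low a level at 3 d and at 2.80 at 30 d. With age and Ago2, 2 of 6 were at least 2-fold higher, miR-14-3p and miR-263b-5p at 2.75, beside 16.2% of all arms, and the list's median of 0.44 was near the 0.35 of all arms. With Ago1, 0 of 7 differed 2-fold with age, where 1.22% of all arms were higher and 1.22% lower. The strands miR-6-3p, miR-13a-3p and miR-308-3p stayed under 10 RPM in every library and passed no minimum. The remaining miR-2a-3p and miR-13b-3p were both lower with Ago2, at -6.19 and -5.11 at 3 d.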

How the data were processed

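Small RNAs bound to Ago1 or Ago2 were measured in 1 library per protein and age. Each deposited list gives the distinct sequences of 1 library and their raw counts of reads, without normalization by the authors. Bowtie, CASAVA 1.8.2 and the build dm3 stand in the submitters' processing notes. How adapters were trimmed, reads aligned and the lists filtered is not given in the sources used here, so totals are those of the listed reads. Sequences listed more than once (up to 5 times, each time with the same count) were counted once.

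Overlapping sequences were joined into arms under the rule given for miR-14, beginning with the 2 miR-14 strands and then from the most abundant sequence down. No table of mature miRNA sequences was used here. The miR-14 strands and most of 91 other names were given by exact match of recalled mature sequences, so names are background knowledge; the 22-nt length of both miR-14 strands equals the annotated length. For some partner strands (miR-278-5p, miR-988-5p, miR-996-5p, miR-100-3p, miR-985-3p, miR-959-3p, miR-263b-3p, miR-124-5p, miR-305-3p and in part miR-34-3p and miR-263a-3p) the name was settled by comparing the arm's values with earlier results of these data, which is no independent check. Paired with every arm of at least 100 reads in a library, the minor strand was the best partner of its major strand for 17 of 24 hairpins, and miR-33-3p, at rank 7, was the lowest.

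RPM was the count over the listed reads. Log2 ratios of arms used a pseudocount of 1 RPM and the arms, named or not, whose mean over the compared libraries reached 100 RPM; ratios of starts and forms are given without it where stated. Intervals at 95% are exact conditional binomial for ratios, from the delta method for differences of ratios, and Wilson for shares. They do not include the pseudocount, and they reflect only counting error, as no molecular identifier separates PCR copies. A count of 3 reads, the limit that a count of 0 allows, is 0.0868 to 0.222 RPM. With 1 library per group there was no test across conditions. Arms past 2-fold were counted as the background. The duplex used the annotated strands for miR-14 and the most abundant forms for other hairpins (ViennaRNA 2.7.2). TMM factors came from edgeR 4.0.16 in R 4.3.3; SciPy 1.17.1 and NumPy 2.4.6 gave the rest. The matching and the intervals were tested on simulated data.

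The text names the miR-14 strands, their forms with at least 1% of a strand in any library, list members, the 3 arms most like each strand and the hairpins next in rank. The members and lists were chosen with earlier results of these data known. The late start and its background (at least 10 reads), the 0.25 nt and 100-read limits, the definition of a minor strand and the 10000-nt window were chosen after values had been seen. Alternatives were other scalings, pseudocounts of 0.1 and 10 RPM, a stricter match (18 nt, shifts of 2 and 4 nt), the most abundant form only, 20 to 24 nt only, every listed line counted, and minimums of 10 RPM or none.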

Additional observations from a re-analysis of the deposited data

Results flagged for a closer look

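The log2 ratio of 30 d over 3 d of miR-14-3p had opposite signs with the 2 proteins, at -0.10 with Ago1 and 1.49 with Ago2. The difference between them was not tested, since each value rests on 1 library at each age, and the sign with Ago1 turned under other scalings.

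The share of miR-14-5p among the reads of both strands was 0.864 percentage points higher at 30 d than at 3 d with Ago1 and changed by -4.38 points with Ago2. This difference was not tested either. It needs no scaling between libraries, and the directions are the ones that make the prevailing strand less dominant at 30 d with both proteins.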

How the results depend on the processing

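No paired analysis was possible because the groups share a single replicate number and the results come from no test. An additive fit of protein and age over the 4 libraries, with 1 residual degree of freedom, was not run, and no library could be left out without ending a comparison. Of 136 alternative values, 69 stayed within the counting interval of the value reported, or moved by no more than 0.5 of its width, or within 1.5 times for a share of arms; 64 moved and 3 changed sign. The counting intervals are narrow at this depth, so small moves count. The 3 changes of sign were all of the age ratio of miR-14-3p with Ago1 (-0.10), which was 0.28 with TMM, 0.036 for the most abundant form only and 0.0055 with the median of ratios; it was -0.051 with the 10 most abundant arms left out. The cause was not tested. After the data had been seen, the same 3 scalings were applied to the late start of miR-14-3p and to the differences of ratios. The late start at 3 d turned from -0.41 to 0.11, 0.47 and 0.60.

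The median of all arms shifted, on the log2 scale, by 0.53 (TMM), 0.88 (median of ratios) and 1.02 (10 arms left out) for Ago2 over Ago1 at 3 d, and by -0.030, 0.81 and 0.74 at 30 d. For age it shifted by 0.37, 0.10 and 0.046 with Ago1 and by -0.18, 0.028 and -0.23 with Ago2. In the order Ago2 over Ago1 at 3 d and 30 d, then age with Ago2, miR-14-3p was at -6.02, -4.99 and 1.31 with TMM and at -5.53, -4.22 and 1.26 with 10 arms left out. The median of ratios gave -5.66 and -4.15 for the proteins, and the most abundant form -6.67, -5.15 and 1.56. For the proteins at 3 d and 30 d, then age with Ago1 and Ago2, miR-14-5p was at 4.71, 3.92, 1.07 and 0.28 with TMM, at 5.06, 4.76, 0.80 and 0.49 with the median of ratios, and at 5.20, 4.69, 0.75 and 0.24 with 10 arms left out. The most abundant form gave 4.03 and 3.79 for the proteins, and a pseudocount of 10 RPM gave 4.15 at 3 d.

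The share of miR-14-5p was 1.39%, 2.21%, 95.9% and 91.7% from the most abundant forms (both Ago1 libraries, then both Ago2 libraries, 3 d first). From 20 to 24 nt only it was 1.16% with Ago1 at 3 d, and 94.8% and 90.4% with Ago2. The annotated start of miR-14-3p held 99.7% and 99.8% with Ago1 under the stricter match, and 99.9%, 99.9%, 90.4% and 94.3% in the 4 libraries from 20 to 24 nt; that of miR-14-5p held 98.9% (Ago1 at 30 d) and 99.2% (Ago2 at 30 d) under the stricter match and 99.2% (Ago2 at 30 d) from 20 to 24 nt. The stricter match gave mean lengths of 20.4 nt (miR-14-3p, Ago1 at 3 d) and 21.6 nt (miR-14-5p, Ago2 at 30 d), and 13.9% shortened for the latter. Counting as shortened only reads that end at least 3 nt early gave 0.0756%, 0.125%, 0.101% and 0.483% for miR-14-3p and 3.38%, 2.11%, 13.4% and 12.3% for miR-14-5p.

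With no minimum level, 13.2% of arms were higher by 2-fold or more and 24.4% lower with Ago2 at 3 d, 13.6% and 23.5% at 30 d, 1.96% and 2.94% at 30 d against 3 d with Ago1, and 6.68% and 4.58% with Ago2. With a minimum of 10 RPM, 2.16% were higher and 7.91% lower with age and Ago1. Depth limits the rarest forms, such as the 15 reads of the 22-nt late-start form with Ago1 at 30 d.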
